A study of Mus musculus with 4 samples.

Results

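The genes described here are 10 genes of the p53 pathway, of the DNA damage response and of cellular senescence, picked by name from the 24441 genes of the deposited table: Trp53, Mdm2, Cdkn1a, Ccng1, Cdkn2a, Bax, Bbc3, Zmat3, Gdf15 and Sesn2. All 10 were found. Their RNA was measured by RNA-seq in skin lesions of GSDMD KO mice (genotype GSDMD-/-, 2 libraries) and of WT mice (2 libraries), female C57BL/6 animals labelled as 8 weeks old. Every mouse, control or KO, had received bleomycin (BLM) under the skin of the back every other day over 28 days, so the comparison is between genotypes within the BLM model of scleroderma and holds no saline-treated skin. The KO line was made with Cas9 in C57BL/6 zygotes, and the sources used here do not say from how many founders. Gsdmd itself stood at 14.0 and 18.2 FPKM in the WT skin, and at 3.53 FPKM in replicate 1 and 2.26 FPKM in replicate 2 of the KO skin, a log2 fold change of -2.14 that was itself not called (adjusted p = 0.248 by limma). The table is named as counts, and FPKM is the unit inferred from its values. FPKM is a fragment count divided by transcript length and library depth, so on that reading levels of different genes can be set side by side per length.

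BLM cuts DNA, and broken DNA is the classical signal that stabilises p53, the transcription factor encoded by Trp53. p53 activates genes that halt the cell cycle (Cdkn1a), that start cell death (Bax, Bbc3) and that shut p53 off again (Mdm2), the last closing a feedback loop. Cells that stay arrested for good are called senescent, and Cdkn2a, which encodes the CDK inhibitor p16INK4a and the MDM2 inhibitor p19ARF, is a widely used marker of them.

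The p53 protein binds a motif of paired sites of 10 bases each, known as the p53 consensus decamer. Exact pairs of decamers with a spacer of at most 1 base were searched in mm9, the genome build of the files, and the motif reads the same on both strands. Within 5 kb of the annotated start of a gene, 1 of the 10 genes (Zmat3) and 0.447% of 20148 annotated genes held such a pair. With 1 mismatch allowed outside the C and G of each decamer, a setting added after the exact search had been seen, 4 of the 10 genes and 4.57% of all annotated genes held one. The genes were picked by name as genes of the p53 pathway, and known p53 sites may be part of why they are named so. The shares here and below are therefore not independent of that choice and are given as description. The pairs are shown in the strand of the gene, with the 4 central bases of each decamer in capitals. Distances run from the GENCODE start of the gene to the 5′ end of the pair. That start is 29227924 in Cdkn1a, 40568813 in Ccng1, 73156355 in Gdf15 and 32264600 in Zmat3, while the gene bounds given with the levels further on are those of the deposited table, which end slightly short of it in Ccng1 and Zmat3.
Cdkn1a, 51 bases before the annotated start, chr17:29227873-29227892: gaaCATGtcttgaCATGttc
Ccng1, 170 bases before the start, chr11:40568964-40568983: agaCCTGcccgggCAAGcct
Ccng1, in an intron, 356 bases after the start, chr11:40568438-40568457: acgCAAGcccgggCTAGtct
Gdf15, in an exon, 471 bases after the start, chr8:73155865-73155884: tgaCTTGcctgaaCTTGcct
Zmat3, in an intron, 1328 bases after the start, chr3:32263253-32263272: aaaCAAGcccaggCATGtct
Zmat3, 4492 bases before the start, chr3:32269073-32269092: gagCAAGtctgggCTTGtta
The Zmat3 pair in the intron is the exact one, and the other 5 have 1 mismatch. In the shorter window from 250 bases before to 50 bases after the start, a pair with up to 1 mismatch was found in 2 of the 10 genes (Cdkn1a and Ccng1) and in 0.0893% of all annotated genes. With 2 mismatches allowed in the wider window, 6 of the 10 genes and 22.7% of all annotated genes had one. A match is a stretch of letters and was not tested for binding, and the lack of one in the other genes says only that these letters are not in this window.

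The 4 libraries were not alike in ways that matter for a bulk tissue. KO replicate 2 held little RNA of fibroblasts, endothelial cells and macrophages: 8 fibroblast markers summed to 51.4 FPKM there, against 508.8 FPKM in KO replicate 1 and 224 to 315 FPKM in WT. It was also the only library with RNA of Y-linked genes, 4 of 40 above 0 and 1.78 FPKM in sum, although the mice are labelled female. The 6 basal keratinocyte markers, which define epidermis, were present in all libraries, at 2177 to 2261 FPKM in sum in WT and 4795 to 5227 FPKM in KO skin, with 5 of the 6 higher at an unadjusted p under 0.05, beside 10.9% of all tested genes. KO replicate 1 stood apart in another way: 10 hair follicle markers summed to 355 FPKM there, against 0.906 to 11.1 FPKM in the other libraries, and 7 suprabasal keratinocyte markers to 8889 FPKM, against 1995 to 4276 FPKM. Skeletal muscle markers were high in every library, and 8 of 8 were lower in KO skin, with sums of 2.76e+04 and 2.59e+04 FPKM in WT against 1.72e+04 and 1.67e+04 FPKM. Adipocyte markers summed to 1768 and 4837 FPKM in WT against 2236 and 241.9 FPKM in KO skin, so the groups overlapped and KO replicate 2 was the lowest. The part of these shifts in the values below was not tested. None of the macrophage, fibroblast or basal keratinocyte markers in the table was at 0 in any library. In such tissue, fewer cells of a type and less RNA per cell cannot be told apart. Each fold change of the 10 genes was therefore also computed without KO replicate 2, and none turned in sign. In that fit 1 of the 10 genes, Cdkn2a, which passed the filter on low values only through WT, had an unadjusted p under 0.05, as did 1540 of 12702 tested genes.

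The order of the levels was much the same in every library. Cdkn1a had the highest level of the 10 genes in 4 of 4 libraries, followed by Ccng1 and then by Bax, and Cdkn2a was the lowest in 4 of 4 libraries. Cdkn1a lay between the percentiles 97.5 and 98.2 of all tested genes, so it was among the abundant transcripts of BLM-treated skin in both genotypes. Trp53 and Mdm2 followed Bax at neighbouring levels and changed places in KO replicate 1. Bbc3 came next in 4 of 4 libraries, and Gdf15, Zmat3 and Sesn2 changed order between libraries, with Gdf15 above the other two in WT and below them in KO skin.

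**Figure D1:**
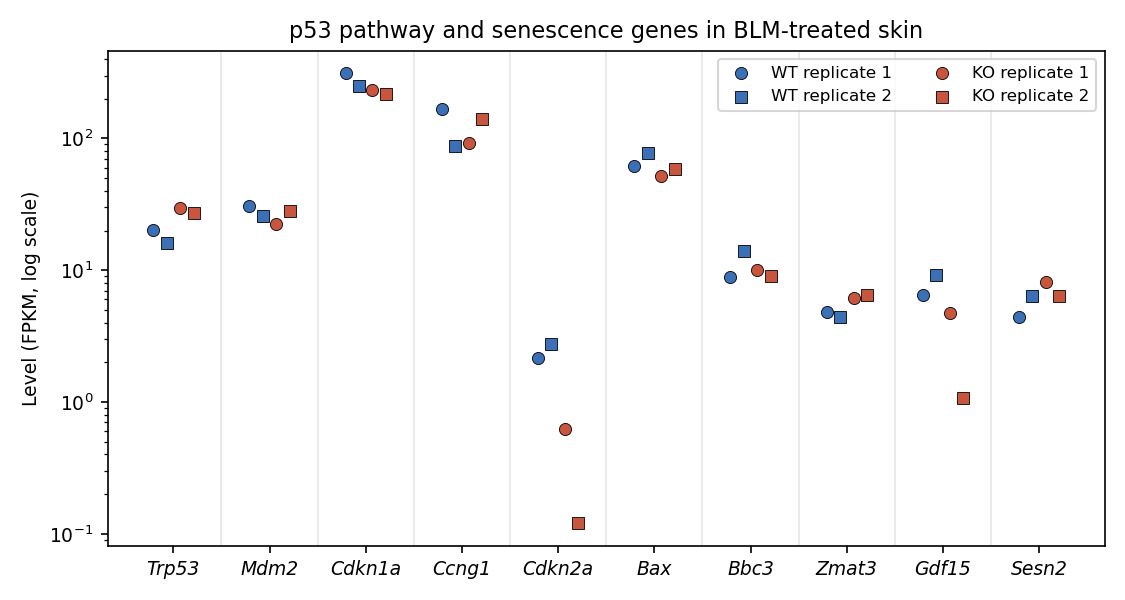
Levels of the 10 genes in each library, in FPKM on a log scale, with WT libraries in blue and KO libraries in red. Both KO points of Trp53 and Zmat3 lie above both WT points, both KO points of Cdkn1a, Cdkn2a, Bax and Gdf15 lie below, and the groups overlap in the other 4 genes.

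Between the genotypes, Trp53 and Zmat3 were higher in both KO libraries than in both WT libraries, and Cdkn1a, Cdkn2a, Bax and Gdf15 were lower in both KO libraries than in both WT libraries. In Mdm2, Ccng1, Bbc3 and Sesn2 the groups overlapped. In the limma model used here, none of these differences passed the threshold of the study. It asks for a log2 fold change beyond 1 in either direction at an adjusted p below 0.05. The paper applied that threshold with another model, DESeq2 on read counts, and did report differentially expressed genes, with Il1b and Ccl2 among those lower in KO skin. The calls below are therefore not a repeat of the paper's test. The limma model with Benjamini-Hochberg adjustment called 0 of the 10 genes and 0 of all 13027 genes tested (0%), where 2230 genes had an unadjusted p under 0.05 (17.1%). The adjusted p-values of the 10 genes lay between 0.248 and 0.916. With an unadjusted p under 0.05 there were 2 of 10, Trp53 (higher) and Cdkn2a (lower), beside 10.9% of all genes higher and 6.22% lower. Cdkn2a passed the filter of 1 FPKM in 2 libraries through its WT values alone, so its lower KO level was built into its being tested, here and in the counts that follow. The groups did not overlap in 2 of 10 genes with higher KO values, beside 35.3% of all tested genes, and in 4 of 10 with lower KO values, beside 20.5% (6 of 10 and 55.8% in both directions). A log2 fold change below -1 was found in 2 of 10 genes, Cdkn2a and Gdf15, and in 6.59% of all genes. Scaling the libraries by median-ratio factors changed the non-overlapping shares to 27.8% and 26.2% of all genes, and the shares with an unadjusted p under 0.05 to 8.64% and 8.56%. It left the 6 genes on their sides and added Mdm2 to those with lower KO values. The unadjusted p of Trp53 was no longer under 0.05 with these factors, with upper-quartile scaling or with a replicate block, and that of Gdf15 was, so 2 of 10 were then Cdkn2a and Gdf15. With 2 libraries a group, 0.333 is the smallest p that an exact permutation test (two-sided) can reach for 1 gene, and it was the p of each of the 6 genes. The labels name separate skin samples and do not say whether each came from its own mouse, so p-values measure the spread between these samples, which may be technical.

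The regulators come first. Trp53, on chromosome 11 from 69393861 to 69405375 (plus strand), had 20.2 and 16.1 FPKM in WT skin, against 29.7 and 27.3 FPKM in KO skin, here and below with replicate 1 named first. The KO values were close to each other and both were above the higher WT value. The group means were 18.2 ± 2.94 FPKM in WT and 28.5 ± 1.65 FPKM in KO (SD, n = 2 libraries for each). The log2 fold change, taken on the log2(FPKM + 1) scale as for all genes here, was 0.63 (standard error 0.24, 95% interval 0.0045 to 1.26, adjusted p = 0.29 by limma). It was 0.69 without KO replicate 2 and ran from 0.47 to 0.79 when each library was left out in turn. A stretch on chromosome 17 from 54558922 to 54560561 aligned to 96% of a Trp53 transcript at 87.6% identity, and how the authors' counting treated fragments that match both was not tested.

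Mdm2 encodes the ubiquitin ligase that marks p53 for degradation and is itself a p53 target. It lies on chromosome 10 from 117125931 to 117147814 (minus strand) and had 30.6 and 25.8 FPKM in WT skin, against 22.3 and 28.0 FPKM in KO skin. One KO library was the lowest of the 4, and the other lay between the WT libraries. On the log2 scale the difference was -0.16 with a 95% interval from -0.81 to 0.48, and it ran from -0.0040 without KO replicate 1 to -0.32 without KO replicate 2.

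Among the genes of cell cycle arrest, Cdkn1a encodes p21, the CDK inhibitor through which p53 stops the cell cycle, and lies on chromosome 17 from 29227924 to 29237667 (plus strand). It was measured at 312.4 and 251.9 FPKM in WT skin, against 232.0 and 218.2 FPKM in KO skin. Both KO values were below the lower WT value, by less than the distance between the WT libraries. The log2 fold change was -0.32 (standard error 0.25, 95% interval -0.95 to 0.32, adjusted p = 0.505 by limma), and it ran from -0.16 without WT replicate 1 to -0.47 without WT replicate 2. A decamer pair with 1 mismatch lies 51 bases before its GENCODE start, the outer bound of 3 annotated transcripts. Distances to the starts of the single transcripts were not taken, and Ccng1 also has a pair before its start.

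Ccng1 encodes cyclin G1, a p53 target that acts together with a phosphatase on MDM2. It lies on chromosome 11 from 40562054 to 40568788 (minus strand). Its level was 168.7 and 87.1 FPKM in WT skin, against 91.8 and 140.4 FPKM in KO skin. Both KO values lay between the WT values, and the distance between libraries of 1 genotype was the largest among the WT pairs of the 10 genes. Its log2 fold change was -0.09 (95% interval -1.16 to 0.97), with a turn to 0.38 without WT replicate 1 and to 0.21 without KO replicate 1. A stretch of 239 bases elsewhere in the genome is 96.2% identical to part of its transcript.

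Cdkn2a, on chromosome 4 from 88920377 to 88940523 (minus strand), had 2.17 and 2.76 FPKM in WT skin. The KO libraries had 0.621 and 0.120 FPKM. The groups stood well apart, with KO replicate 2 close to 0. At the depth estimated from the steps of low values, about 32 to 37 fragments stood behind each WT value, 7.29 to 7.96 behind KO replicate 1 and 1.31 to 1.43 behind KO replicate 2, whose value was under that of 3 fragments (0.253 FPKM). The log2 fold change was -1.36 (standard error 0.30, 95% interval -2.11 to -0.60, adjusted p = 0.248 by limma). It depended on the pseudocount, at -1.82 with 0.5 and -2.68 with 0.1. Leaving out KO replicate 2 gave -1.09, and leaving out KO replicate 1 gave -1.62 (adjusted p = 0.0166 by limma, the lowest over the alternatives, the highest being 0.375). Because only its WT values passed the filter, it was not tested once a WT library was left out. The table gives 1 value for the gene, so p16INK4a and p19ARF transcripts were not told apart.

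The genes of cell death showed small differences. Bax, on chromosome 7 from 52717065 to 52722268 (minus strand), encodes a protein that makes mitochondria permeable in apoptosis. It had 62.0 and 78.0 FPKM in WT skin, against 51.5 and 58.5 FPKM in KO skin, without overlap but with a gap smaller than the distance between the WT libraries. Bax differed by -0.34 on the log2 scale (standard error 0.25, 95% interval -0.97 to 0.30, adjusted p = 0.486 by limma), and -0.17 without WT replicate 2. Bbc3 encodes PUMA, a BH3-only protein that frees BAX from its inhibitors, and lies on chromosome 7 from 16894932 to 16903683 (plus strand). Bbc3 had 8.91 and 14.0 FPKM in WT skin, against 10.1 and 9.11 FPKM in KO skin. Both KO values lay between the WT values. Its log2 fold change of -0.21 (95% interval -0.96 to 0.55) turned to 0.09 without WT replicate 2. Zmat3, on chromosome 3 from 32233716 to 32264587 (minus strand), encodes an RNA-binding zinc finger protein that p53 induces. Its level was 4.81 and 4.44 FPKM in WT skin, against 6.20 and 6.48 FPKM in KO skin. The libraries of each genotype were closer to each other in Zmat3 than in any other of the 10 genes, and the KO values were the higher. Its log2 fold change was 0.39 (standard error 0.23, 95% interval -0.21 to 0.98, adjusted p = 0.414 by limma), within 0.28 to 0.45 under all alternatives. A stretch on chromosome 15 from 57337910 to 57338218 aligned to its transcript over 173 bases at 87.9% identity.

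The stress genes differed in sign. Gdf15 encodes a secreted cytokine of the TGF-beta superfamily that both p53 and the ATF4 stress response can induce and that senescent cells release. On chromosome 8 from 73153292 to 73156355 (minus strand), it had 6.52 and 9.27 FPKM in WT skin, against 4.78 and 1.08 FPKM in KO skin. KO replicate 2 was far below the other 3 libraries, and KO replicate 1 was below WT replicate 1 by less than the WT libraries differed. The log2 fold change was -1.34 (standard error 0.53, 95% interval -2.71 to 0.02, adjusted p = 0.294 by limma). Leaving out KO replicate 2 gave -0.61 and leaving out KO replicate 1 gave -2.08 (adjusted p = 0.00885 by limma, the lowest over the alternatives, the highest being 0.954), so its size rested on which KO library was used. KO replicate 2 is the library with little fibroblast, endothelial and macrophage RNA, and the part of that in the Gdf15 value was not tested. Sesn2 encodes sestrin 2, which restrains mTORC1 and is induced by p53 and by ATF4, and lies on chromosome 4 from 132048722 to 132066371 (minus strand). With 4.44 and 6.42 FPKM in WT skin, against 8.21 and 6.32 FPKM in KO skin, the groups overlapped. Its log2 fold change was 0.37 (95% interval -0.37 to 1.11), with 0.15 without WT replicate 1, 0.20 without KO replicate 1 and 0.59 without WT replicate 2.

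**Figure D2:**
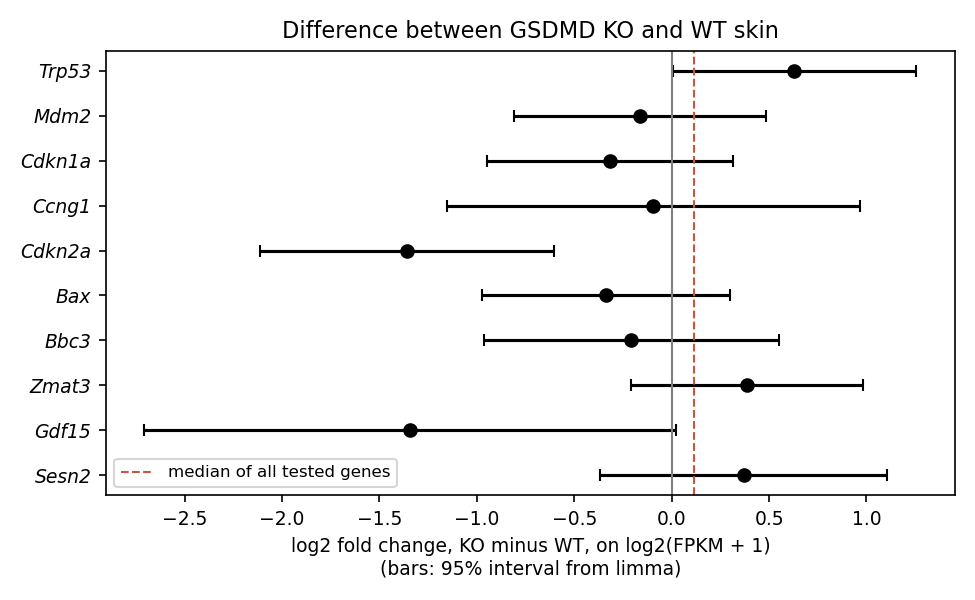
log2 fold change of each gene, KO minus WT, on the log2(FPKM + 1) scale, with 95% intervals from limma and the median of all tested genes (0.11) as a dashed line. The interval of Trp53 lies just above 0, 8 intervals include 0, and that of Cdkn2a lies below 0, a gene that was tested only because of its WT values and whose lowest KO value is under that of 3 fragments.

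The median log2 fold change of the 10 genes was -0.18, beside 0.11 over all tested genes. It was -0.30 without KO replicate 2 and -0.04 without WT replicate 1, the latter over 9 genes, since Cdkn2a was then not tested. With median-ratio factors the median of the 10 genes moved to -0.30 and that of all genes to 0.01, and the log2 fold changes of the 10 genes were lower as well (0.51 for Trp53, -0.44 for Cdkn1a and -1.42 for Cdkn2a). The distance between replicates was larger in KO than in WT skin in 3 of the 10 genes (Cdkn2a, Gdf15 and Mdm2).

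The level of each gene was divided by the Trp53 level of the same library, a ratio that no scaling of libraries can change. It was chosen after the values had been seen and is given without a test. Cdkn1a stood at 15.4 and 15.7 times the Trp53 level in the WT libraries, and at 7.82 and 7.99 times in KO replicates 1 and 2. The ratio was thus nearly equal within a genotype and differed by 0.98 log2 units between genotypes. How many other genes have pairs this close was not counted. Profiles like that of Cdkn1a were common, with 207 genes within a distance of 0.2 on the log2(FPKM + 1) scale. Mdm2 stood at 1.51 and 1.60 times Trp53 in WT, and at 0.752 and 1.03 times in KO skin. For Bax the ratios were 3.06 and 4.85 in WT, and 1.74 and 2.14 in KO skin, while the ratio of Sesn2 overlapped between the groups. In 8 of the 9 genes both KO ratios were below both WT ratios, in Zmat3 by the smallest margin (0.2378 against 0.2373 for the nearest libraries). Among all tested genes 56.9% had the same order and 8.11% the opposite one, since the higher Trp53 level of the KO libraries enters every ratio.

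**Figure D3:**
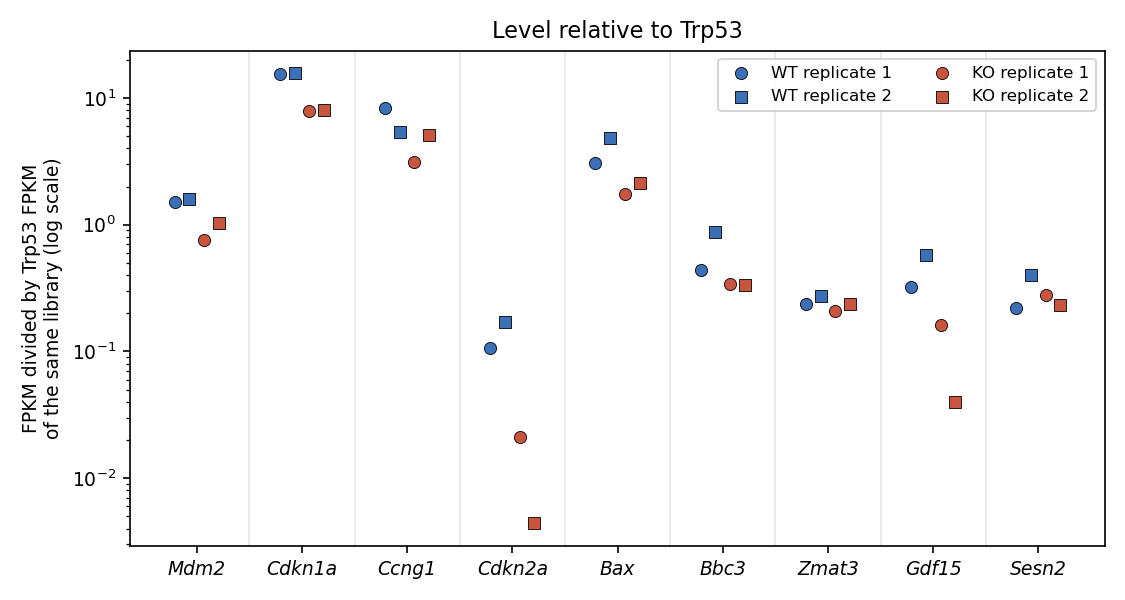
Level of 9 genes divided by the Trp53 level of the same library, on a log scale, with WT libraries in blue and KO libraries in red. The Cdkn1a ratios of the WT libraries (15.4 and 15.7) and of the KO libraries (7.82 and 7.99) form close pairs, and in Sesn2 alone the groups overlap clearly.

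Other genes of the pathway were read from lists of known members. No gene of any list passed the threshold in the limma model over all genes tested, so their values are given as levels. Of 12 tested regulators of p53 and DNA damage kinases, 10 had higher values in KO skin, with a median log2 fold change of 0.63, and 5 of them had an unadjusted p under 0.05, all higher, beside 10.9% of all genes. The p53 relatives Trp63, the master regulator of basal keratinocytes, and Trp73 were among them: Trp63 had 17.0 and 11.2 FPKM in WT skin, against 32.7 and 56.8 FPKM in KO skin. Mdm4, the MDM2 partner that inhibits p53, had 11.7 and 9.42 FPKM in WT skin, against 17.3 and 24.4 FPKM in KO skin. Unlike Mdm2, Mdm4 did not overlap between the groups, but the difference between the 2 genes was not tested. The proliferation markers (7 of 7 higher, median 1.45) and basal keratinocyte markers (6 of 6 higher, median 1.10) were higher in KO skin too. Their part in the values of this list was not tested.

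Among other p53 targets of arrest and repair, 10 of 15 tested genes were higher in KO skin (median log2 fold change 0.40), and 1 of the 15, Psrc1, had an unadjusted p under 0.05, a share below that of all genes (10.9% higher). The median was 0.19 without KO replicate 2 and 0.23 with a filter of 5 FPKM. Psrc1, a gene of the mitotic spindle, had 8.66 and 6.73 FPKM in WT skin, against 16.2 and 41.7 FPKM in KO skin. The proliferation markers were also higher in KO skin (7 of 7), and their part in the values of this list was not tested. Sesn1, the sestrin next in kind to Sesn2, had 18.4 and 17.98 FPKM in WT skin, against 20.9 and 29.9 FPKM in KO skin. Of 11 targets of the death group, 5 were higher and 6 lower, with a median of -0.01, which turned to 0.11 without WT replicate 1. With an unadjusted p under 0.05 there were 2 of the 11, Perp and Trp53inp1, both higher, beside 10.9% of all genes. Perp, a p53 and p63 target that belongs to desmosomes of stratified epithelia, had 277.3 and 143.6 FPKM in WT skin, against 574.9 and 819.6 FPKM in KO skin (log2 fold change 1.78 ± 0.41 SE). Trp63 and Perp are also genes of the epidermis, whose 6 basal markers were all higher in KO skin, and the part of the epidermal share in these values was not tested.

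In the BCL2 family, whose members Bax and Bbc3 belong to, 4 of 11 tested genes were higher and 7 lower in KO skin (median log2 fold change -0.12). This median was 0.01 without KO replicate 2, -0.03 without WT replicate 1 and -0.43 without KO replicate 1. Bak1, the other main effector beside Bax, had 27.9 and 26.8 FPKM in WT skin, against 22.1 and 17.7 FPKM in KO skin. Bcl2, the inhibitor of apoptosis that names the family, was low in all libraries, between 1.06 and 2.05 FPKM. Bok was the 1 gene of the 11 with an unadjusted p under 0.05, a share no larger than that of all genes (10.9% higher), at 26.3 and 17.5 FPKM in WT skin, against 47.7 and 47.8 FPKM in KO skin.

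Of the CDK inhibitors and RB pathway genes, 11 of 16 were higher in KO skin (median log2 fold change 0.32, but 0.20 without KO replicate 2 and 0.01 with a filter of 5 FPKM). With an unadjusted p under 0.05 there were 1 higher gene, Rbl1, which encodes the RB relative p107 (log2 fold change 1.07), and 1 lower gene, Cdkn1c, beside 10.9% and 6.22% of all genes. Cdkn2b, the neighbour of Cdkn2a that encodes p15INK4b, overlapped between the groups, with 3.82 and 4.53 FPKM in WT skin, against 6.12 and 4.15 FPKM in KO skin. Cdkn1b (p27) had 21.2 and 11.0 FPKM in WT skin, against 26.3 and 31.6 FPKM in KO skin, whereas Cdkn1c (p57) had 28.2 and 12.3 FPKM in WT skin, against 9.33 and 4.06 FPKM in KO skin.

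For senescence, the list of secreted factors had mostly lower values: 14 of 18 tested genes were lower in KO skin, with a median log2 fold change of -0.68, and 5 had an unadjusted p under 0.05, all lower, beside 6.22% of all genes. The smallest p-values of the list were those of Il1b, Ccl2 and Plaur. Il1b, the cytokine whose release GSDMD pores permit, had 35.7 and 59.8 FPKM in WT skin, against 2.49 and 4.65 FPKM in KO skin. Plaur, the urokinase receptor, had 32.6 and 35.5 FPKM in WT skin, against 6.04 and 1.54 FPKM in KO skin. The median depended on KO replicate 2, being 0.08 without it and -1.26 without KO replicate 1. Such factors are also made by macrophages, of which 10 of 10 markers were lower in KO skin and summed to 2125 and 2203 FPKM in WT, and to 873 FPKM in replicate 1 and 94.4 FPKM in replicate 2 of KO, and their part in these values was not tested. Of 7 tested intracellular markers of senescence, 5 were higher and 2, Glb1 and Hmga1, lower in KO skin (median 0.42). Glb1 and Hmga1, with log2 fold changes of -0.34 and -0.05, were named after their values had been seen. The list holds genes that senescent cells lose, such as Lmnb1, so higher values in it do not stand for more senescence. Lmnb1, the lamin that senescent cells lose, had 7.83 and 6.37 FPKM in WT skin, against 8.92 and 10.8 FPKM in KO skin (log2 fold change 0.42, adjusted p = 0.41 by limma). Hmgb2 had 10.2 and 6.79 FPKM in WT skin, against 16.3 and 31.2 FPKM in KO skin. All 7 tested proliferation markers were higher in KO skin, with 7 of 7 at an unadjusted p under 0.05, beside 10.9% of all genes. The 6 basal keratinocyte markers were higher as well (median 1.10), and their part in these values was not tested. Mki67, the gene of the Ki-67 antigen, had 2.72 and 1.03 FPKM in WT skin, against 5.80 and 14.8 FPKM in KO skin.

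Genes of the ATF4 stress response, which shares Gdf15 and Sesn2 with p53, were split: 8 of 11 tested genes were higher in KO skin (median log2 fold change 0.36), 3 of them at an unadjusted p under 0.05, and 2 of the lower genes were, beside 10.9% of all genes higher and 6.22% lower. Leaving out KO replicate 1 moved the median to 0.21, and leaving out KO replicate 2 moved it to 0.16. The 2 lower genes were Chac1, at 44.3 and 40.9 FPKM in WT skin, against 21.1 and 15.9 FPKM in KO skin, and Atf3, at 16.3 and 30.0 FPKM in WT skin, against 6.71 and 10.9 FPKM in KO skin. Ddit4, an mTORC1 inhibitor like Sesn2, had 22.3 and 25.2 FPKM in WT skin, against 49.5 and 41.1 FPKM in KO skin. Of 12 tested genes of DNA strand-break repair, 11 were higher in KO skin (median log2 fold change 0.31, from 0.17 without WT replicate 2 to 0.49 without WT replicate 1). With an unadjusted p under 0.05 there were 2 of the 12, both higher, beside 10.9% of all genes. One of them, H2afx, the histone variant marked at breaks, had 18.6 and 13.3 FPKM in WT skin, against 27.2 and 35.5 FPKM in KO skin. The proliferation markers (7 of 7 higher, median 1.45) and basal keratinocyte markers (6 of 6 higher, median 1.10) lay on the same side, and their part in this list was not tested.

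**Figure D4:**
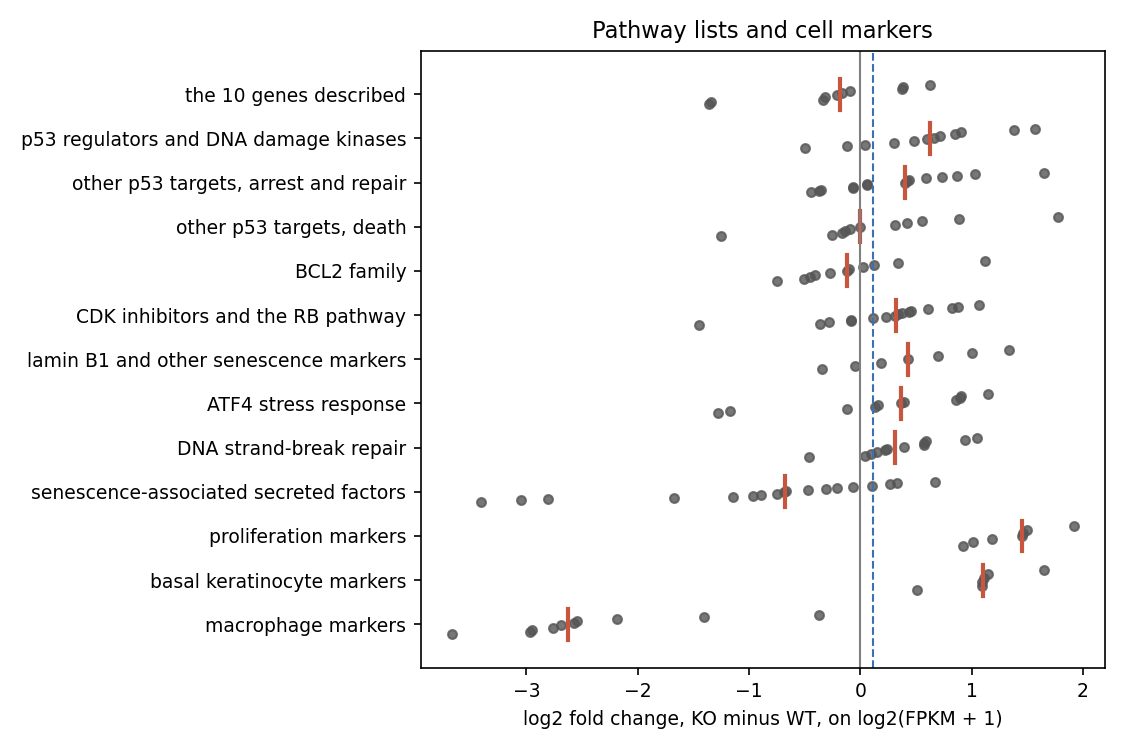
log2 fold change of every tested gene, KO minus WT, for the 10 genes described and 12 lists, with the median of each list in red and that of all tested genes (0.11) as a dashed line. The medians of the p53 regulators (0.63), basal keratinocyte and proliferation markers lie to the right, those of the secreted factors (-0.68) and macrophage markers to the left. No single gene passed the threshold in the limma model.

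By the distance between profiles over the 4 libraries, on the log2(FPKM + 1) scale with each gene centred on its mean, the genes most like Cdkn1a were 8030462N17Rik, Rgs10 and Smg8 (distances 0.035, 0.036 and 0.036). Those most like Trp53 were Lonrf1, Epb41l4a and Chtf8 (distances 0.019, 0.040 and 0.053). With 4 points such closeness was common: 207 genes lay within a distance of 0.2 of Cdkn1a and 138 within that of Trp53.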

How the data were processed

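RNA of BLM-treated skin from GSDMD KO and WT mice (2 libraries each) was analysed, with groups and replicate numbers taken from the labels. Alignment was done by the authors on mm9 (HISAT2 version 2.0.1), and the submitters' processing notes also name StringTie version 2.0.6. The deposited values were read as FPKM made by the authors, a unit inferred from the values: 99.993% of the non-zero ones have decimals although the table is named as counts. The paper describes read counts made with featureCounts, and the program that made the values with decimals is not given in the sources used here. The count model set in the plan could therefore not be used. No scaling was added to the log2(FPKM + 1) values. A filter of 1 FPKM in 2 or more libraries left 13027 genes for limma (version 3.58.1, R version 4.3.3, genotype only, mean-variance trend, Benjamini-Hochberg adjustment). All 10 genes passed this filter. The test was tried on simulated data first.

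The genes, lists and tests were chosen with earlier results of these data known, and lists are described by counts and medians without a test. Listed genes are named where they had up to the 3 smallest p-values of a list or were set in the plan as partners or relatives of the 10 genes or as markers (Mdm4, Sesn1, Bcl2, Bak1, Cdkn1b, Cdkn2b, Lmnb1 and Mki67). Depth is not in the table. Low values rise in steps of 1 fragment, and from these steps 3 fragments on a transcript of 1 kb were put at 0.173 to 0.235 FPKM, an approximation without an interval. Gene bounds are those of the deposited table on mm9, given counted from 1. Strand, transcripts and transcription starts come from GENCODE, where 99.2% of 20310 genes found by symbol overlapped the table's locus. Similar sequence elsewhere in the genome was searched with minimap2 version 2.31-r1302 (at least 150 bases at 85% identity). No exon of the 10 genes overlaps one of another annotated gene. Same-numbered libraries were not taken as pairs. Alternatives were other scalings, pseudocounts, filters, a fit without trend, a replicate block and leaving out each library.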

Additional observations from a re-analysis of the deposited data

How the results depend on the processing

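Of 127 values of the 10 genes under alternatives, 122 kept their direction and their side of the threshold, 3 turned in sign and 2 passed the threshold, Cdkn2a and Gdf15 without KO replicate 1. The sign turned for Ccng1 (-0.57 to 0.38 over the fits without 1 library, and 0.21 without KO replicate 1) and for Bbc3 (-0.51 to 0.093, the latter without WT replicate 2). The 0 calls over all genes became 31 without KO replicate 2 and 1920 without KO replicate 1, fits in which 1 KO library is assumed to vary like the WT libraries, and stayed at 0 under the other alternatives. With an unadjusted p under 0.05 there were 2230 genes, 1420 higher and 810 lower, and leaving out single libraries gave 493 to 3991 genes, 278 to 1965 higher and 215 to 2026 lower. The 2 of the 10 genes with an unadjusted p under 0.05 were Trp53 and Cdkn2a, but Cdkn2a and Gdf15 with either other scaling and with the block, and became 1 with a filter of 5 FPKM or without the trend, and 0 to 2 when a library was left out. Exact decamer pairs in the gene body with 5 kb before it were found in 1 of the 10 genes, and in 6 and 8 with 1 and 2 mismatches. Within 5 kb of the start they were found in 1, 4 and 6. With the replicate number as a block, 0 genes were called, no call of the 10 genes changed, and 1999 had an unadjusted p under 0.05. Same-numbered libraries deviated in opposite ways (correlation -0.202 over 13027 genes), and the crossed pairing, added after seeing the data, gave 0 calls and 3052 genes with an unadjusted p under 0.05. With 2 libraries a group and a few fragments behind the KO values of Cdkn2a, depth and number of libraries limit what could be detected. The cause of these dependences was not tested. DESeq2 and edgeR were not run, since the table holds no counts.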
